A study of Danio rerio with 10 samples.

Results

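Normal zebrafish larvae were compared between day 5 and day 3 of development, on 5 of the 10 arrays of a study of the earl grey (egy) mutant. The pools were chosen by their titles: 3 pools of siblings labelled wt at day 5 (120 hours after fertilization) and 2 such pools at day 3 (72 hours). Each pool held whole embryos and was measured on 1 Affymetrix zebrafish array. All fish, mutants included, came from matings of egy heterozygotes in the AB/WIK background that carry the cz3 allele, and were raised at 28 °C. Siblings were told from mutants by their looks, and since the defect is recessive the sibling pools may hold heterozygotes as well as wild-type larvae. The 5 mutant arrays, 3 at day 5 and 2 at day 3, entered the estimate of the spread and a comparison at the end.

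Some labels conflict with the titles. The source name of day 5 pool 2, and of mutant pool 3 of that day, gives day 4, and the series' design text names days 3 and 4, while the treatment protocol gives 72 and 120 hours. The strain label of day 3 pool 2 says mut. The mutated gene, sart3, had signals of 1771, 2586 and 2036 in the sibling pools of day 5, numbered 1 to 3 as in the labels, and 2526 and 2517 in those of day 3. In the mutant pools it had 105, 132 and 809 on day 5 and 462 and 648 on day 3. Every sibling pool, the one with the mut label included, lay above every mutant pool. Over all probe sets tested, those left after a filter on low signals, the highest Spearman correlation of day 3 pool 2 with a mutant pool of that day was 0.970. For day 3 pool 1 it was 0.962. The 2 mutant pools of day 3 correlated at 0.971 with each other. Day 5 pool 2 was the day 5 pool closest to day 3 for 34.8% of the probe sets called below, against 20.3% for pool 1 and 44.9% for pool 3. Its correlations with the day 3 pools, 0.937 and 0.947, were the highest of the day 5 pools, against 0.923 and 0.937 for pool 1 and 0.937 and 0.946 for pool 3. On the first principal component, where day 3 pools 1 and 2 lay at -6.41 and -12.9, it had the lowest score of the day 5 pools, 27.7, against 33.2 for pool 1 and 28.3 for pool 3. In genes picked after their values were seen, day 3 pool 2 also lay near day 3 pool 1. mdm2 had 1227 in pool 2 and 1040 in pool 1, against 4299 and 3885 in the mutant pools of day 3. For snrpf these were 9859 and 7892, against 24145 and 22627. In these genes and in sart3 the pool with the mut label lay with the sibling pools. That label was not tested further, and whether the day 4 labels are right was not settled here. Spearman correlations were 0.974 to 0.980 among the day 5 pools and 0.983 between the day 3 pools, against 0.923 to 0.947 between the days.

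Between these ages a zebrafish larva goes from hatching to the onset of feeding. The yolk is used up, the gut opens and becomes motile, the exocrine pancreas fills with zymogens, the liver takes over the secretion of plasma proteins, and the retina and the swimming muscles come into use. In whole larvae a higher signal of an organ's genes can come from more cells of that organ or from more RNA per cell, and the arrays cannot tell these apart.

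The comparison asked which transcripts differ between day 5 and day 3 in normal larvae. Digestive enzymes of the pancreas rose the most, and cyp1a, a cytochrome P450 that the aryl hydrocarbon receptor induces, fell the most among named genes. Of 11626 probe sets tested, 2150 passed the threshold of an adjusted p of 0.05 (18.5%), with 976 higher on day 5 (8.39%) and 1174 lower (10.1%). Counted by the brightest probe set of each gene, 1404 of 7287 genes passed (19.3%), with 693 higher (9.51%) and 711 lower (9.76%). More than 2-fold changes were rarer, with 136 genes higher (1.87%) and 84 lower (1.15%). The median log2 difference was -0.01 over all genes. For 56.9% of the genes the day 5 and day 3 pools did not overlap, so a lack of overlap is no result by itself. The largest rises and falls named below were also picked among genes without overlap. The count rests on the day 3 pools: it was 887 without day 3 pool 1 and 379 without day 3 pool 2. It was 1225, 1425 and 1624 without day 5 pools 1, 2 and 3. In all 10 fits that each left out 1 array, 323 probe sets passed, 187 of them higher and 136 lower.

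**Figure D1:**
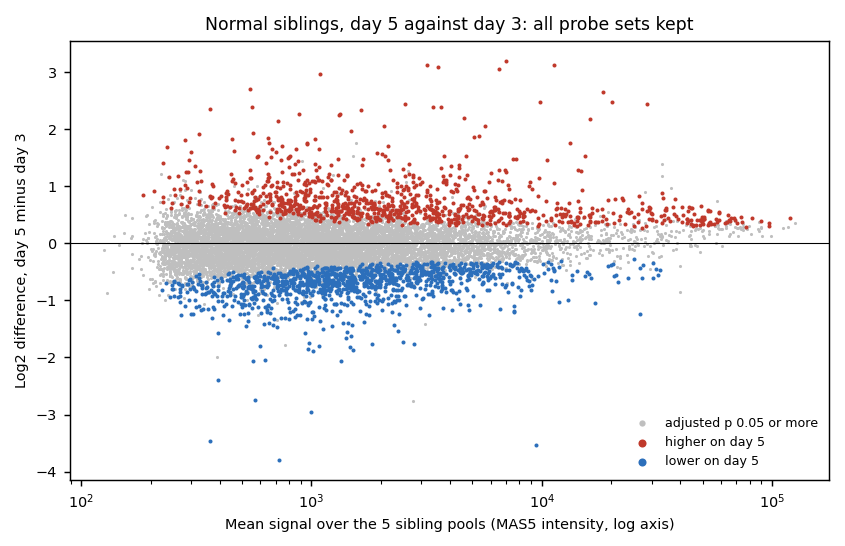
Log2 difference between day 5 and day 3 in siblings (vertical axis) against the mean MAS5 signal of the 5 sibling pools (horizontal log axis), 1 point per probe set tested. Red points are the 976 probe sets higher on day 5, blue points the 1174 lower and grey points those that did not pass; the rises and falls cover the whole range of signals.

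The changes were then read by organ and by pathway, over 49 lists with 1291 entries tested, some genes standing in several lists. The median difference was above 0 in 34 lists and below 0 in 15. The exocrine pancreas (88.2% of members higher), the intestine (66.7%), ribosomal proteins (61.1%), oxidative phosphorylation (53.1%) and skin (48.9%) had the largest shares of rises. That order depends on settings: with quantile normalization 15 of 72 ribosomal protein genes rose, and without day 3 pool 2 only 3 of those 72 and 2 of the 64 oxidative phosphorylation genes did. Small nuclear RNPs (45.5% lower), the proteasome (36.4%) and the nucleolus (27.8%) had the largest shares of falls among lists of over 10 members. The falls were 1 of 33, 3 of 33 and 1 of 54, in the same order, without day 3 pool 2. The Hox cluster, with 0 of 36 higher and 1 lower, and DNA replication, with 0 of 51 higher and 1 lower, lay under the shares of all genes. The DNA replication fall was lost without any 1 of the 5 sibling pools. The Hox fall was lost without either day 3 pool and without day 5 pool 1 or 2. Counts of the lists below are to be read beside the 9.51% of all genes that rose and the 9.76% that fell.

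**Figure D2:**
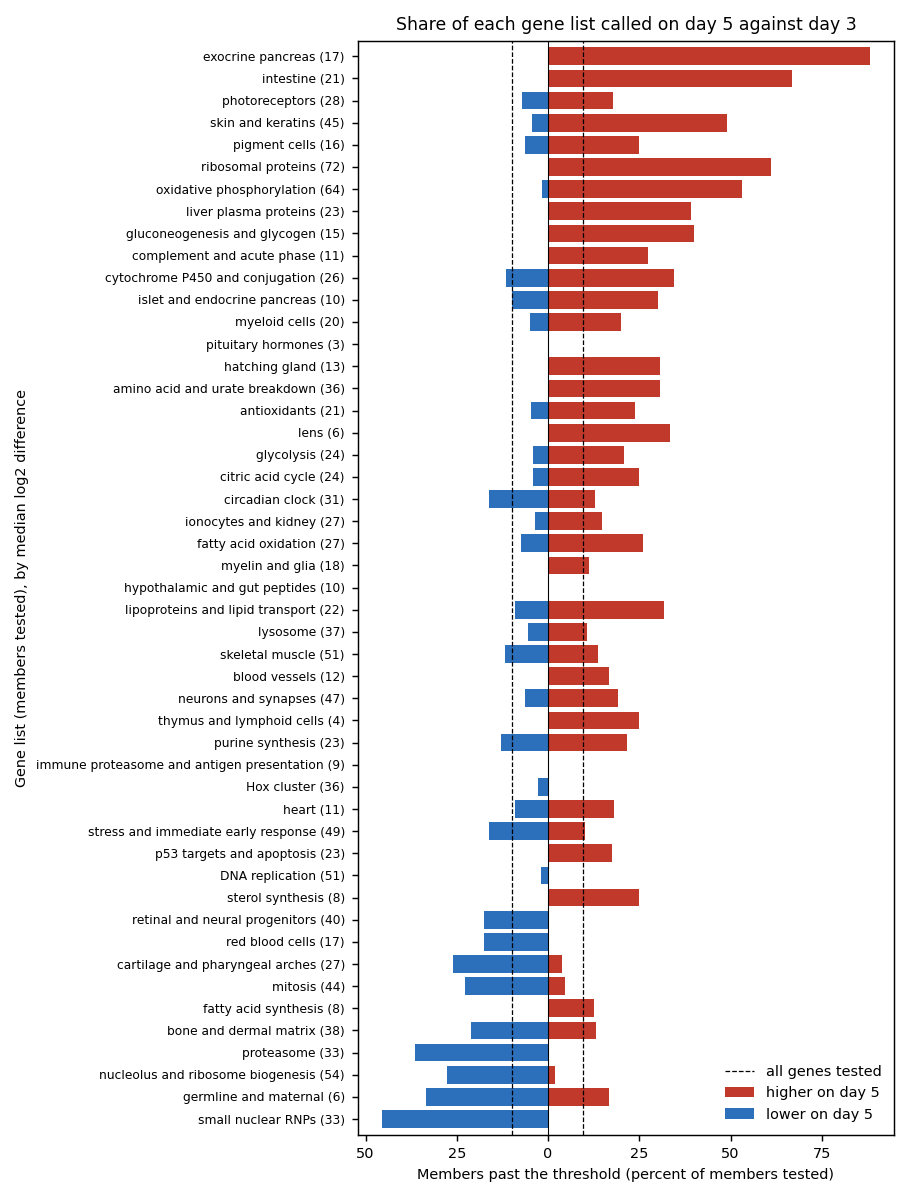
Percent of each list's members that passed the threshold, with members higher on day 5 to the right in red and members lower on day 5 to the left in blue. Lists run down by their median log2 difference, the number tested is in brackets, and dashed lines mark the 9.51% and 9.76% of all genes; exocrine pancreas stands at the top with 88.2% higher and small nuclear RNPs at the bottom with 45.5% lower.

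Genes of the exocrine pancreas had the largest median difference of the 49 lists. Of 20 members on the array 17 passed the filter on low signals, and 15 rose and 0 fell, by 1.52 to 3.21 on the log2 scale, with a median of 2.27. ctrl, a chymotrypsin-like protease, had signals of 12532, 9020 and 11294 on day 5, against 1291 and 966 on day 3. That is a ratio of mean signals of 9.7 and a log2 difference of 3.21 ± 0.43 (SE, adjusted p = 0.000784), and the lowest day 5 pool lay far above the higher day 3 pool. The elastases moved like it. ela2l had 5565, 4158 and 5048 on day 5, against 745 and 327 on day 3 (3.14 ± 0.38, adjusted p = 0.000478). cela1.6 had 21314, 14063 and 17220, against 2179 and 1673 (3.13 ± 0.42, adjusted p = 0.000752). ela3l had 6729, 4082 and 5671, against 824 and 397 (3.09 ± 0.40, adjusted p = 0.000648). In these elastases day 3 pool 2 was the lower day 3 pool and day 5 pool 2 the lowest day 5 pool. amy2a, the starch-digesting amylase, had 2481, 1467 and 2022 on day 5, against 331 and 378 on day 3 (2.26 ± 0.23, adjusted p = 0.000185). pla2g1b, the pancreatic phospholipase, had 884, 362 and 461 on day 5, against 52.9 and 51.5 on day 3 (2.35 ± 0.33, adjusted p = 0.00106). Its day 3 signals lay under the filter limit of 232, which leaves the size of its rise uncertain. Outside the day 5 sibling pools only mutant pool 3 of day 5, at 244, lay above that limit. pla2g1b thus passed the filter mainly through the group where it is high. prss1, a trypsin, had 28094, 20526 and 21856, against 5970 and 4299 (2.19 ± 0.47, adjusted p = 0.0084), and cpa5, a carboxypeptidase A, had 17720, 11844 and 14375, against 2727 and 2331 (2.49 ± 0.52, adjusted p = 0.00756). Both calls were lost without day 3 pool 2. ctrb.1, a chymotrypsinogen, and ela2 rose by 2.66 and 3.06. The call of ela2 was lost without day 3 pool 2 (adjusted p = 0.128) and that of ctrb.1, at an adjusted p of 0.0405, without any 1 of the sibling pools and of 3 mutant pools, with adjusted p of up to 0.231. The 2 members that did not pass, named here after their values were seen, were cel.1, a bile salt lipase, at 1.54 (adjusted p = 0.0849), and ptf1a, the transcription factor that specifies exocrine cells, at 0.11 (adjusted p = 0.784). The list had 9 rises without day 3 pool 2 and 13 without day 3 pool 1.

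**Figure D3:**
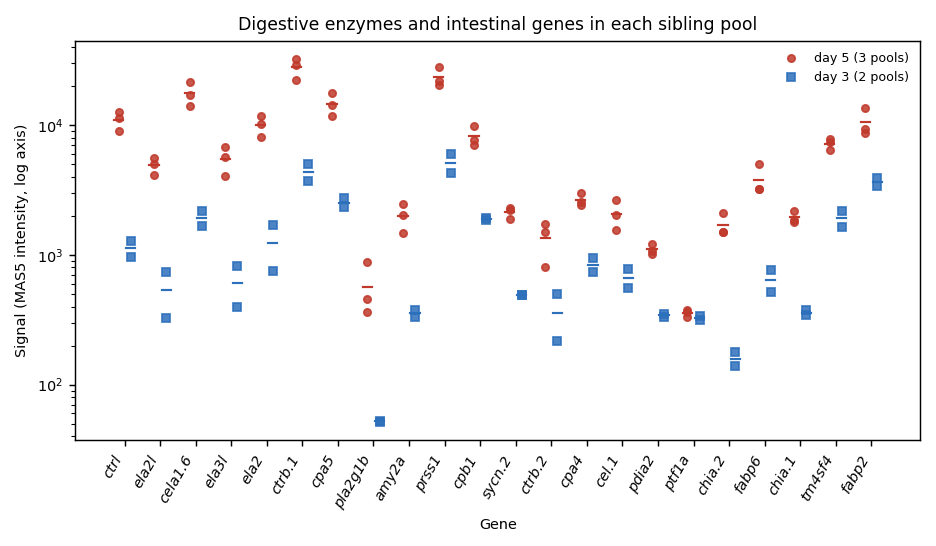
MAS5 signal (log axis) of the 17 exocrine pancreas members tested, ordered by their log2 difference, and of 5 intestinal genes in each sibling pool. Red circles on the left of each gene are the 3 day 5 pools, blue squares on the right the 2 day 3 pools, and lines are means. The days overlap in no gene but ptf1a, where the lowest day 5 pool lies between the day 3 pools. Over all genes 56.9% show no overlap.

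The hormone genes of the islet rose by less. ins, the insulin gene of the beta cells, had 1509, 1431 and 1565 on day 5, against 813 and 801 on day 3 (0.84 ± 0.15, adjusted p = 0.00311). gcga, a glucagon gene of the alpha cells, had 609, 615 and 609.5, against 348 and 338 (0.73 ± 0.15, adjusted p = 0.00654). sst2, a somatostatin gene, rose by 0.71 (adjusted p = 0.0219). isl1a, an islet and neuronal transcription factor, fell by 0.52 (adjusted p = 0.00985), and the other 6 of the 10 islet members did not pass. Within each day the pools differed by little beside the step between the days for ins and gcga. The call of ins held in every fit that left out 1 array. That of gcga was lost without day 3 pool 2 (adjusted p = 0.078), that of sst2 without day 3 pool 2 (0.261) or day 5 pool 1 (0.0773), and that of isl1a without day 3 pool 1 (0.0559) or pool 2 (0.11).

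In the intestine 14 of 21 members rose and 0 fell, with a median of 0.80. The rises ran from 0.63 to 2.97. chia.2 and chia.1, acidic chitinases of the gut, led with fatty acid binding genes. chia.2 had 2106, 1506 and 1490 on day 5, against 179 and 139 on day 3 (2.97 ± 0.28, adjusted p = 0.000148). chia.1 had 2196, 1871 and 1796, against 345 and 374 (2.25 ± 0.32, adjusted p = 0.00114). The day 3 signals of chia.2 were under the filter limit, so that its ratio is uncertain, and it passed the filter mainly through the day 5 sibling pools. fabp6, which binds bile acids in the distal gut, had 4999, 3203 and 3197 on day 5, against 769 and 516 on day 3 (2.44 ± 0.43, adjusted p = 0.00288). fabp2, the intestinal fatty acid binding gene, had 13504, 9331 and 8691, against 3910 and 3394 (1.48 ± 0.25, adjusted p = 0.00239). tm4sf4, a tetraspanin-like gene of gut and liver, had 7386, 6416 and 7754, against 2198 and 1655 (1.87 ± 0.27, adjusted p = 0.00112). Day 5 pool 1 was the highest pool for both chitinases and both binding genes. The call of fabp6 was lost without day 3 pool 2 (adjusted p = 0.0549), and those of the other 4 held in every fit that left out 1 array. aoc1, a diamine oxidase that degrades histamine and is no list member, had 987, 674 and 905 on day 5, against 96.9 and 54.4 on day 3, again under the filter limit (2.71 ± 0.32, adjusted p = 0.000435). Its mutant signals, 191, 67.6 and 186 on day 5 and 66.4 and 18.3 on day 3, were under it too. aoc1 thus passed the filter only through the day 5 sibling pools, where it is high, which limits what its adjusted p can say. tgm1l3, a transglutaminase and also no member of the intestine list, had 1287, 1352 and 1310, against 157 and 300.0 (2.28 ± 0.39, adjusted p = 0.0027). In tgm1l3 the day 5 pools lay close together while the day 3 pools differed, and the day 3 mean was under the filter limit.

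Lists of the liver had smaller medians. 9 of 23 genes of plasma proteins rose and 0 fell, with a median of 0.34. fabp10a, the fatty acid binding gene of the zebrafish liver, stood far above the others with 7581, 6739 and 5836 on day 5, against 1644 and 1202 on day 3 (2.2 ± 0.40, adjusted p = 0.00375). serpinf2a, which encodes an inhibitor of plasmin, had 1164, 1177 and 1170, against 438 and 477 (1.24 ± 0.17, adjusted p = 0.00106). ambp, the precursor of alpha-1-microglobulin and bikunin, had 7423, 7105 and 7096, against 4721 and 4775 (0.60 ± 0.10, adjusted p = 0.00273). In serpinf2a and ambp the pools of a day nearly coincided. shbg, which encodes the carrier of sex steroids in plasma, rose by 1.26 (adjusted p = 0.00255). The calls of fabp10a and shbg were lost without day 3 pool 2 (adjusted p = 0.0639 and 0.057), and the count of plasma protein rises was 4 without day 3 pool 1 and 2 without day 3 pool 2. Of 11 complement and acute phase genes 3 rose and 0 fell, with a median of 0.33: c7b and c9, of the membrane attack complex, by 1.42 and 0.78, and c3a.1, the central complement factor, by 0.91. The day 3 signals of c7b, in siblings and in mutants, were all under the filter limit. c7b thus passed the filter only through day 5 pools, where it is high, which limits what its call can say. Without day 3 pool 1 that count was 1 and without pool 2 it was 0, with adjusted p = 0.129 for c7b, 0.0872 for c9 and 0.0804 for c3a.1 without pool 2.

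Genes that carry and store lipid rose in part. Among 22, 7 rose (31.8%) and 2 fell (9.09%), with a median of 0.10. The share of falls lay near the 9.76% of all genes. lpla, a lipoprotein lipase, had 1679, 1791 and 1684 on day 5, against 958 and 897 on day 3 (0.84 ± 0.12, adjusted p = 0.00128), and the pools of each day lay close together. apoa1a, the main apolipoprotein of high-density lipoprotein, rose by 0.44 and mogat2, which makes diacylglycerol in the gut, by 1.15. pla2g12b, which is needed for the export of lipoproteins, fell to 1361, 1385 and 1356 on day 5, against 2312 and 3387 on day 3 (-1.0 ± 0.19, adjusted p = 0.00402). fabp7a, the brain fatty acid binding gene, fell by 0.57. The call of lpla held in every fit without 1 array. Those of pla2g12b, fabp7a, apoa1a and mogat2 were lost without day 3 pool 2 (adjusted p = 0.0858, 0.112, 0.179 and 0.105), and apoa1a and mogat2 also without day 3 pool 1 (0.073 and 0.0719). mogat2 was lost without day 5 pool 1 as well (0.0511). The number of rises was 2 without day 3 pool 1 or pool 2 and 4 without day 5 pool 1, and that of falls 0 without day 3 pool 2. Sterol synthesis had 2 of 8 higher, fatty acid synthesis 1 of 8, and no member of either list fell. The sterol rises were 0 without either day 3 pool or day 5 pool 1 or 3 and 1 without day 5 pool 2, and the fatty acid synthesis rise was lost without either day 3 pool.

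Enzymes that break down amino acids and urate rose in 11 of 36 cases, with 0 falls and a median of 0.20. uox, urate oxidase, had 3111, 2857 and 3744 on day 5, against 1690 and 1457 on day 3 (1.01 ± 0.17, adjusted p = 0.00244). hgd, of tyrosine breakdown, had 3553, 2993 and 3318, against 1699 and 1840 (0.87 ± 0.16, adjusted p = 0.00434). arg2, an arginase, had 1837, 1656 and 1750, against 866 and 949.7 (0.90 ± 0.17, adjusted p = 0.00452). glud1b, a glutamate dehydrogenase that releases ammonia, rose by 0.83 (adjusted p = 0.00158). The calls of all 4 held in every fit without 1 array. No pools of the days overlapped in any of them, as in 56.9% of all genes. Without day 3 pool 1 there were 7 rises, and without day 3 pool 2 there were 5.

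For sugar metabolism, the list of gluconeogenesis and glycogen genes had 6 of 15 members higher and 0 lower, with a median of 0.34. Its largest rise was that of pklr, the pyruvate kinase of the liver and red cells, which works in the glycolytic direction: 9678, 10398 and 7296 on day 5, against 4034 and 3461 on day 3 (1.26 ± 0.17, adjusted p = 0.000971). fbp1b, a fructose bisphosphatase of gluconeogenesis, had 8456, 7061 and 7191, against 4363 and 4190 (0.81 ± 0.12, adjusted p = 0.00152). ppp1r3cb, a subunit that directs a phosphatase to glycogen, had 1711, 1738 and 1495, against 804 and 811 (0.97 ± 0.15, adjusted p = 0.00144). In fbp1b and ppp1r3cb the day 5 pools spread more than the day 3 pools, which nearly coincided. These calls held in every fit without 1 array, and the count was 3 without day 3 pool 2. In glycolysis 5 of 24 members rose and 1 fell, with a median of 0.14. ldha, a lactate dehydrogenase of glycolytic tissue, was the one that fell, to 3371, 2972 and 3641 on day 5, against 5988 and 5875 on day 3 (-0.83 ± 0.17, adjusted p = 0.00606), and its call was lost without day 3 pool 2 (adjusted p = 0.0649). The number of glycolytic rises was 1 without day 3 pool 1, 0 without day 3 pool 2, and 3, 2 and 3 without day 5 pools 1, 2 and 3.

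In oxidative phosphorylation 34 of 64 members rose and 1 fell, with a median of 0.35, and 58 of the 64 differences were above 0. ndufa2, a subunit of complex I, had 6935, 6025 and 5912 on day 5, against 3497 and 2987 on day 3 (0.94 ± 0.14, adjusted p = 0.00144), with day 5 well above day 3. The other rises lay between 0.34 and 0.74, and cox4i2, a subunit of cytochrome oxidase, was at the upper end with 1278, 1609 and 1628, against 932 and 811 (0.74 ± 0.17, adjusted p = 0.0128). ndufs8a, another subunit of complex I, fell by 0.52 (adjusted p = 0.0324). The call of ndufa2 held in every fit without 1 array. That of cox4i2 was lost without day 3 pool 2 (adjusted p = 0.144) and that of ndufs8a without any of 4 sibling pools, with 0.16 and 0.16 without day 3 pools 1 and 2 and 0.0778 and 0.109 without day 5 pools 1 and 2. The number of rises was 17 without day 3 pool 1, 2 without day 3 pool 2 and 22 without day 5 pool 1. In the citric acid cycle 6 of 24 rose and 1 fell, with a median of 0.14, and 0 rose without day 3 pool 2, while the fall was lost without 4 of the 5 sibling pools. In fatty acid oxidation 7 of 27 rose and 2 fell, with a median of 0.12. decr1, a mitochondrial dienoyl-CoA reductase, had 1597, 1277 and 1847 on day 5, against 599.7 and 657 on day 3 (1.23 ± 0.21, adjusted p = 0.00268). scp2a, a peroxisomal sterol carrier and thiolase, had 5185, 4217 and 3783, against 2222 and 2226 (0.95 ± 0.13, adjusted p = 0.000946). cpt1ab, a carnitine palmitoyltransferase that admits fatty acids to mitochondria, fell by 0.58 (adjusted p = 0.0235). Of these, decr1 and scp2a kept their calls in every fit without 1 array, while cpt1ab lost it without day 3 pool 1 (0.0879) or 2 (0.186) and without day 5 pool 1 (0.0756) or 2 (0.0703). The oxidation list had 2 rises without day 3 pool 2, and 0 falls without either day 3 pool or without day 5 pool 1 or 2.

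The enzymes of foreign compound metabolism split. Of 26 cytochrome P450 and conjugation genes 9 rose and 3 fell, with a median of 0.29. cyp1a fell to 1670, 1454 and 2005 on day 5, against 26658 and 15493 on day 3, a ratio of mean signals of 0.081 (-3.53 ± 0.22, adjusted p = 9.79e-06). Day 3 pool 1 had the highest signal, and all day 5 pools lay far under the lower day 3 pool. cyp1c1, of the same family, fell to 639.7, 340.1 and 359, against 2488 and 1236 (-1.88 ± 0.36, adjusted p = 0.0048). Another probe set of cyp1c1 had 190.0, 218 and 224 on day 5, against 2864 and 1481 on day 3 (-2.95 ± 0.24, adjusted p = 7.69e-05), and its other probe set did not pass. The rises were in other families. gsto2, a glutathione transferase, had 3890, 2697 and 3341 on day 5, against 1580 and 1256 on day 3 (1.18 ± 0.17, adjusted p = 0.00132). cyp2p6 had 729, 736 and 690.2, against 274 and 304 (1.15 ± 0.18, adjusted p = 0.00207). cyp2ad2, also of the CYP2 family, rose by 1.1 (adjusted p = 0.00211). The calls of cyp1a, gsto2, cyp2p6 and cyp2ad2 held in every fit without 1 array, while that of the cyp1c1 probe set given first was lost without day 3 pool 1 (adjusted p = 0.0659). The number of rises was 5 without day 3 pool 2. Among 21 antioxidant genes 5 rose and 1 fell, with a median of 0.19. nfe2l2a, a transcription factor of the oxidant response, rose by 1.21 (adjusted p = 0.00207) and gsr, glutathione reductase, by 0.65 (adjusted p = 0.00273), both in every fit without 1 array, and 2 of the list rose without day 3 pool 2.

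Beside cyp1a and cyp1c1, the largest falls were spread over several functions. cry5, also among the largest falls, is described with the clock and light-response genes in the next paragraph. As there, the hour and the light at collection are not labelled, so age and hour cannot be told apart here. prxl2b, a peroxiredoxin-like prostaglandin synthase, fell to 358, 743 and 616 on day 5, against 2255 and 2754 on day 3 (-2.06 ± 0.28, adjusted p = 0.000784). lonrf4, a gene with LON protease and RING finger domains, fell to 534, 540.1 and 454, against 1926 and 1929 (-1.80 ± 0.14, adjusted p = 6.58e-05). dhrs12, a short-chain dehydrogenase, fell to 230.2, 315 and 263, against 1026 and 1150 (-1.79 ± 0.18, adjusted p = 0.000185). In lonrf4 the day 3 pools were nearly equal and every day 5 pool lay far under them. hebp2, a heme-binding gene, fell to 1006, 836 and 846, against 2833 and 3616 (-1.77 ± 0.17, adjusted p = 0.000148). cst14b.1, a cystatin, fell to 402, 278 and 589, against 1059 and 2501 (-1.85 ± 0.30, adjusted p = 0.00218). abhd4, a lipid hydrolase, fell to 439, 469 and 411, against 1101 and 1265 (-1.30 ± 0.15, adjusted p = 0.000393). The pools of cst14b.1 differed widely within each day. irg1l, named after the enzyme that makes itaconate, fell to 722, 678 and 579 on day 5, against 1707 and 3898 on day 3 (-1.88 ± 0.34, adjusted p = 0.0034), with day 3 pool 2 far above pool 1. ddb2, which senses ultraviolet damage in DNA, fell to 302, 394 and 220.2, against 884 and 854 (-1.36 ± 0.28, adjusted p = 0.00717). The calls of irg1l and ddb2 were lost without day 3 pool 2 (adjusted p = 0.069 and 0.0738), and that of ddb2 also without pool 1 (0.0539), while those of the other 6 held in every fit without 1 array. Of the 157 probe sets that fell more than 2-fold (1.35%) 110 have 1 gene symbol, and of the 190 that rose as far (1.63%) 155 do, so some of the largest changes are unnamed here.

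Clock and light-response genes moved both ways. In zebrafish the clocks of most tissues are set directly by light, and per2, the cryptochromes and photolyases and the thyrotroph embryonic factor gene tefa are among the genes that light induces. Of 31 list members 4 rose and 5 fell, with a median of 0.14. These shares, 12.9% higher and 16.1% lower, lay not far above those of all genes given earlier, and a difference was not tested. cry5, a photolyase of the cryptochrome family, fell to 133, 224 and 226 on day 5, all under the filter limit, against 712 and 678 on day 3 (-1.58 ± 0.26, adjusted p = 0.00246). per2, a period gene, fell to 1932, 2199 and 1826, against 4016 and 4823 (-1.13 ± 0.16, adjusted p = 0.00112). tefa fell to 3372, 3247 and 2751, against 6145 and 6215 (-0.98 ± 0.13, adjusted p = 0.000685), and its day 3 pools were nearly equal. cry3b, another cryptochrome, fell to 183, 259 and 215, with a mean under the filter limit, against 547 and 575 (-1.15 ± 0.22, adjusted p = 0.00424). Its mutant signals were 207, 150 and 119 on day 5 and 428 and 525 on day 3. cry3b thus passed the filter mainly through the day 3 pools, where it is high, which limits what its adjusted p can say. Of the rises, bhlhe41, a repressor of the clock loop, had 801, 913 and 705 on day 5, against 222 and 252 on day 3 (1.52 ± 0.17, adjusted p = 0.000322). fbxl3a, which marks cryptochromes for destruction, had 4497, 3742 and 3585, against 2551 and 2102 (0.74 ± 0.13, adjusted p = 0.00255). The day 5 pools of bhlhe41 all lay far above the day 3 pools. cry5, per2, tefa and bhlhe41 kept their calls in every fit without 1 array, while cry3b and fbxl3a lost theirs without day 3 pool 2 (adjusted p = 0.0643 and 0.0586). Of the list, 3 fell and 1 rose without day 3 pool 2, and 2 rose without day 3 pool 1 or day 5 pool 1 or 2. The labels do not give the hour or the light at collection, and each age comes from its own collection, so age and hour cannot be told apart.

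**Figure D4:**
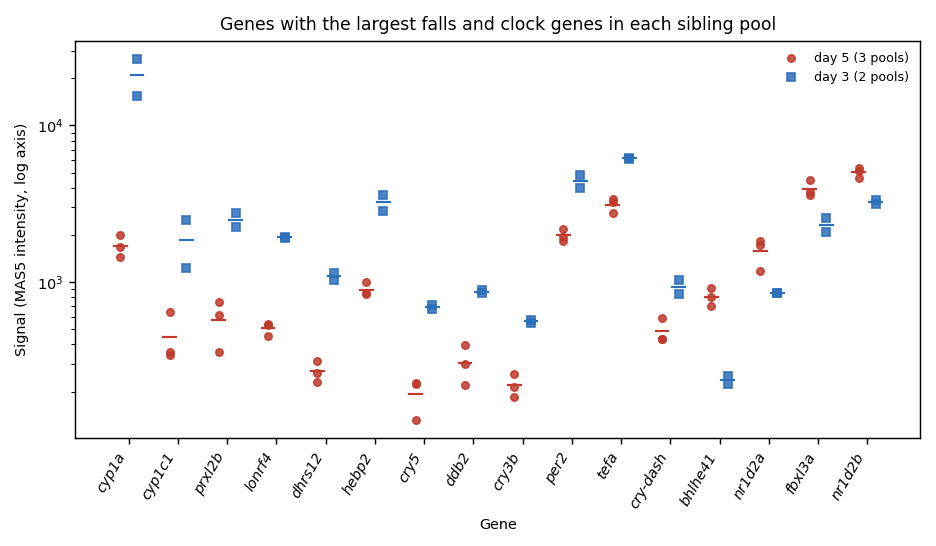
MAS5 signal (log axis) in each sibling pool for genes with large falls, from cyp1a to ddb2, and for clock genes, from cry3b to nr1d2b. Red circles on the left of each gene are the 3 day 5 pools, blue squares on the right the 2 day 3 pools, and lines are means; cyp1a has the widest gap, with 1454 to 2005 on day 5 against 15493 and 26658 on day 3, and bhlhe41 is higher on day 5.

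Genes for making ribosomes and for making their proteins went opposite ways. Of 72 ribosomal protein genes 44 rose and 0 fell, with a median of 0.37 and all 72 differences above 0. rpl29 had 40310, 39856 and 42311 on day 5, against 23856 and 20650 on day 3 (0.88 ± 0.11, adjusted p = 0.000677). rps29 had 57079, 51678 and 48929, against 34926 and 32896 (0.63 ± 0.09, adjusted p = 0.00137). These are among the brightest probe sets, and the result depends on scaling: with quantile normalization the median was 0.09 and 15 members rose. The number of rises was 16 without day 3 pool 1, 3 without day 3 pool 2 and 25 without day 5 pool 1. Of 54 genes of the nucleolus and of ribosome biogenesis 15 fell and 1 rose, with a median of -0.31. nolc1, a scaffold of small nucleolar RNPs, fell to 1375, 1377 and 1459 on day 5, against 2286 and 2578 on day 3 (-0.76 ± 0.12, adjusted p = 0.00171). rrs1 and nip7, assembly factors of the large subunit, fell by 1.0 (adjusted p = 0.00379) and by 0.94 (adjusted p = 0.00347). The pools of nolc1 differed by little within a day, and its call held in every fit without 1 array. Those of rrs1 and nip7 were lost without day 3 pool 2 (adjusted p = 0.0752 and 0.061). The number of falls was 6 without day 3 pool 1, 1 without day 3 pool 2 and 9 without day 5 pool 2.

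Of 33 genes of the small nuclear RNPs, the subunits of the spliceosome, 15 fell and 0 rose, with a median of -0.42. sf3b4, of the U2 particle, fell to 1093, 974 and 1030 on day 5, against 2200 and 2117 on day 3 (-1.02 ± 0.17, adjusted p = 0.00243), with close values within each day. prpf3, of the U4/U6 particle, and snrpg, of the Sm ring, fell by 0.88 and 0.81 (adjusted p = 0.0234 and 0.0261), and sart3 did not pass (-0.25 ± 0.51, adjusted p = 0.772). The call of sf3b4 held in every fit without 1 array, while those of prpf3 and snrpg were lost without either day 3 pool (adjusted p = 0.0656 and 0.0545 without pool 1, 0.205 and 0.246 without pool 2). Without day 5 pool 2 the adjusted p was 0.072 for prpf3 and 0.0815 for snrpg, without day 5 pool 3 it was 0.0722 for prpf3, and without day 5 pool 1 0.0616 for snrpg. The number of falls was 4 and 1 without day 3 pools 1 and 2, and 5, 6 and 7 without day 5 pools 1, 2 and 3. Of 33 proteasome genes 12 fell and 0 rose, with a median of -0.20. psmd11b, of the regulatory lid, fell to 1164, 1383 and 1603 on day 5, against 2423 and 3086 on day 3 (-0.96 ± 0.15, adjusted p = 0.00193). psmd4b, a ubiquitin receptor, fell to 1940, 2274 and 2384, against 3980 and 4661 (-0.95 ± 0.12, adjusted p = 0.000535). Both calls held in every fit without 1 array, and in both genes day 5 pool 1 was the lowest and day 3 pool 2 the highest. The number of falls was 7 without day 3 pool 1 or day 5 pool 1 and 3 without day 3 pool 2.

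The list of stress and immediate early genes had 5 of 49 members higher and 8 lower, with a median of -0.03 that was 0.004 with quantile normalization. hspd1 and hspa9, chaperones of the mitochondrial matrix, fell by 0.75 (adjusted p = 0.00255) and by 0.66 (adjusted p = 0.00145). hspd1 had 6505, 6766 and 7404 on day 5, against 11886 and 11401 on day 3, and hspa9 had 7377, 6819 and 7291, against 10741 and 11948. hspa5, the chaperone of the endoplasmic reticulum, fell by 0.64 (adjusted p = 0.01). mcl1b, a survival factor of the BCL2 family that the list holds as a fast-induced gene, rose to 3244, 2534 and 3275, against 876 and 857 (1.72 ± 0.22, adjusted p = 0.000552). hspd1, hspa9 and mcl1b kept their calls in every fit without 1 array, and hspa5 lost it without day 3 pool 2 (adjusted p = 0.146). The counts higher and lower were 1 and 5 without day 3 pool 1, 2 and 2 without day 3 pool 2, 4 and 5 without day 5 pool 1, and 2 and 6 without day 5 pool 2, and 3 and 6 without day 5 pool 3.

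Genes of cell division fell in part. Of 44 mitosis genes 10 fell and 2 rose, with a median of -0.15, while 1 of 51 DNA replication genes fell. kif4, a chromosome-bound kinesin, fell to 313, 501 and 491 on day 5, against 966 and 1061 on day 3 (-1.13 ± 0.19, adjusted p = 0.00267). kif20a, a kinesin of cytokinesis, rose to 16375, 22720 and 16714, against 9213 and 9851 (0.94 ± 0.17, adjusted p = 0.00363), with day 5 pool 2 the highest. stmn1b, a tubulin-binding gene found also in neurons, rose by 0.60 (adjusted p = 0.00257). pcna, the sliding clamp of DNA replication, had 21354, 18552 and 19603 on day 5, against 18230 and 17215 on day 3 (0.16 ± 0.09, adjusted p = 0.242). The calls of kif4, kif20a and stmn1b held in every fit without 1 array. The number of mitosis falls was 1 without day 3 pool 1 or pool 2, and 2 and 3 without day 5 pools 1 and 2.

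In the eye, some photoreceptor genes rose, and some genes of the immature retina fell. Of 28 photoreceptor genes 5 rose (17.9%) and 2 fell (7.14%), with a median of 0.42. The share of falls lay under the 9.76% of all genes. gnat2, the transducin subunit of cones, had 22919, 21285 and 18539 on day 5, against 7898 and 6451 on day 3 (1.54 ± 0.40, adjusted p = 0.0209). rbp3, which carries retinoids between photoreceptors and pigment epithelium, had 3720, 3520 and 3139, against 1603 and 1298 (1.22 ± 0.26, adjusted p = 0.00839). pde6c, the phosphodiesterase of cones, had 7325, 7939 and 7309, against 3602 and 3455 (1.08 ± 0.27, adjusted p = 0.0165). The pools of a day were close in all of these, and the SE draws on the spread of all 10 arrays. crx, a transcription factor of photoreceptor precursors, fell to 2685, 3254 and 2792 on day 5, against 4510 and 5167 on day 3 (-0.72 ± 0.17, adjusted p = 0.0145). rcvrn3, a recoverin gene, fell to 3037, 4342 and 3529, against 6067 and 6781 (-0.82 ± 0.25, adjusted p = 0.0381). opn1sw1, an opsin gene and the list's first member, did not pass (0.74 ± 0.48, adjusted p = 0.311). The list rests on the day 3 pools: 2 members rose without pool 1 and 0 without pool 2, and 0 fell without either day 3 pool or without day 5 pool 1. Without day 3 pool 1 the adjusted p was 0.0741 for gnat2, 0.0354 for rbp3, 0.0786 for pde6c and 0.0519 for crx, and without pool 2 it was 0.172, 0.111, 0.13 and 0.159 in the same order. Without day 5 pool 1 it was 0.0667 for gnat2 and 0.0536 for crx, and without day 5 pool 2 0.0519 for gnat2. Of 40 genes of retinal and neural progenitors 7 fell and 0 rose, with a median of -0.11. Of the 40 differences 21 were below 0 and 19 above. sox4a, a transcription factor of newborn neurons, fell to 6358, 5817 and 5589 on day 5, against 9412 and 9801 on day 3 (-0.69 ± 0.12, adjusted p = 0.00243), in every fit without 1 array. her4.2, a target of Notch, fell to 278, 286 and 391, against 841 and 594 (-1.02 ± 0.21, adjusted p = 0.00611), with its call lost without day 3 pool 1 (adjusted p = 0.0847). The number of progenitor falls was 3 and 2 without day 3 pools 1 and 2, and 4 without day 5 pool 1.

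In the rest of the nervous system 9 of 47 genes of neurons and synapses rose and 3 fell, with a median of 0.09. pvalb7, a parvalbumin of Purkinje cells, had 5585, 4896 and 4956 on day 5, against 1766 and 1685 on day 3 (1.54 ± 0.15, adjusted p = 0.000173). tubb5, a tubulin of growing neurites, fell to 8246, 9271 and 9428, against 14254 and 13675 (-0.64 ± 0.11, adjusted p = 0.00253). cldnk, a claudin of myelin, had 2198, 1945 and 2167, against 1170 and 843 (1.03 ± 0.16, adjusted p = 0.00154), and it was 1 of 2 rises among 18 genes of myelin and glia. These 3 calls held in every fit without 1 array. Their days did not overlap, as in 56.9% of all genes. The number of neuronal rises was 2 and 1 without day 3 pools 1 and 2, and 3 without each day 5 pool. The numbers of falls were 1 without either day 3 pool and 2 without day 5 pool 1 or 2. The lens list had 2 of 6 members higher and 0 lower, with a median of 0.18 that was -0.04 with quantile normalization, and 0 rose without either day 3 pool or day 5 pool 1. No gene of the hypothalamic, gut and pituitary lists passed, with 12 distinct genes tested.

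In the skin 22 of 45 members rose and 2 fell, with a median of 0.40. The keratins led, with krt97 at 19928, 17924 and 17626 on day 5, against 5899 and 4998 on day 3 (1.75 ± 0.14, adjusted p = 7.69e-05). krt15 had 8911, 9263 and 7548, against 3510 and 3386 (1.29 ± 0.16, adjusted p = 0.000478). krt1-19d had 5301, 5306 and 4919, against 2226 and 2207 (1.2 ± 0.10, adjusted p = 0.000101). anxa2a, an annexin of epithelial membranes, rose by 1.01 (adjusted p = 0.000609), and the calls of all 4 held in every fit without 1 array. Pools of the same day lay close together in the 3 keratins. anxa1b, another annexin, fell by 0.82 (adjusted p = 0.00554) and cdh1, the epithelial cadherin, by 0.49 (adjusted p = 0.0411). Those calls were lost without day 3 pool 2 (adjusted p = 0.0913 and 0.27), and that of cdh1 also without day 3 pool 1 (0.106), day 5 pools 1 and 3 (0.136 and 0.0616) and either mutant pool of day 3. The number of rises was 11 and 12 without day 3 pools 1 and 2.

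Cartilage and matrix genes held both rises and falls. Of 27 genes of cartilage and the pharyngeal arches 7 fell and 1 rose, with a median of -0.11. col9a3, a collagen of cartilage, fell to 7958, 9449 and 7939 on day 5, against 16260 and 18076 on day 3 (-1.02 ± 0.15, adjusted p = 0.00112). hapln1a, which links aggrecan to hyaluronan, fell by 1.16 (adjusted p = 0.000648). Of its 4 probe sets 2 more fell, by 1.76 (adjusted p = 0.0191) and 0.57 (adjusted p = 0.0389). The remaining one rose by 2.39 ± 0.69 (adjusted p = 0.0307), with 602, 1560 and 418 on day 5, against 83.6 and 94.2 on day 3. Its day 3 signals were under the filter limit and its day 5 pools differed widely, so the size of that rise is uncertain. sox9b, a transcription factor of cartilage, rose by 0.51 (adjusted p = 0.0085). In bone and dermal matrix 5 of 38 rose and 8 fell, with a median of -0.20. thbs1b, a thrombospondin, fell to 949, 815 and 814, against 2134 and 1951 (-1.19 ± 0.14, adjusted p = 0.000393). mmp14b, a membrane-bound matrix protease, fell to 1011, 1176 and 1357, against 2022 and 2354 (-0.86 ± 0.14, adjusted p = 0.00195). p4ha1b, a collagen prolyl hydroxylase, fell to 403, 396 and 569, against 1830 and 809 (-1.32 ± 0.27, adjusted p = 0.00686), with day 3 pool 1 far above pool 2. Without day 3 pool 1 the fall of p4ha1b shrank to -0.76 (adjusted p = 0.0811). col9a3, thbs1b and mmp14b kept their calls in every fit without 1 array, and sox9b lost it without day 3 pool 1 (0.0543) or 2 (0.0943). The number of cartilage falls was 3 and 2 without day 3 pools 1 and 2 and 4 without each day 5 pool, and 10 with quantile normalization. In the matrix list 3 fell without either day 3 pool, and 1, 0, 1, 2 and 3 rose without day 3 pools 1 and 2 and day 5 pools 1, 2 and 3.

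Muscle showed both directions, and the list's direction depends on scaling. Of 51 skeletal muscle genes 7 rose and 6 fell, with a median of 0.10, while with quantile normalization 5 rose and 13 fell, with a median of -0.08. The shares without that normalization, 13.7% higher and 11.8% lower, lay not far above those of all genes given earlier. A difference from those shares was not tested. desma and desmb, desmin genes of the intermediate filaments, rose by 0.76 (adjusted p = 0.00246) and 1.47 (adjusted p = 0.0018). desma had 9220, 7090 and 8246 on day 5, against 4625 and 4969 on day 3. desmb had 390.0, 371 and 486, against 86.4 and 132 and thus under the filter limit on day 3. In mutants desmb had 337, 279 and 230 on day 5 and 12.6 and 20.1 on day 3. desmb thus passed the filter only through day 5 pools, where it is high, which limits what its adjusted p can say. tpm1, a tropomyosin, had 14203, 14680 and 14023, against 7374 and 6304 (1.06 ± 0.12, adjusted p = 0.000402). The days did not overlap in any of them, which held for 56.9% of all genes. unc45b and hsp90aa1.1, chaperones that fold muscle myosin, fell by 0.65 (adjusted p = 0.0145) and by 0.64 (adjusted p = 0.00571). xirp1, an actin-binding gene of muscle attachments, fell by 1.11 (adjusted p = 0.011). The calls of desma, desmb and tpm1 held in every fit without 1 array, and those of unc45b, hsp90aa1.1 and xirp1 were lost without day 3 pool 2 (adjusted p = 0.157, 0.0943 and 0.146), and unc45b also without pool 1 (0.055). The counts higher and lower were 4 and 3 without day 3 pool 1, 3 and 0 without pool 2, 4 and 5 without day 5 pool 2, and 11 and 4 without day 5 pool 3. In the blood vessel list 2 of 12 members rose and 0 fell. acta2, smooth muscle actin, had 11351, 11640 and 10632 on day 5, against 6395 and 5214 on day 3 (0.95 ± 0.13, adjusted p = 0.000948). tagln, transgelin, had 3265, 3050 and 3111, against 1745 and 1449 (0.95 ± 0.14, adjusted p = 0.00132). Gut smooth muscle expresses both as well, and both calls held in every fit without 1 array. The heart list had 2 of 11 members higher and 1 lower, with a median of -0.002 that was 0.06 with quantile normalization. It had 0 of each without day 3 pool 1, day 3 pool 2 or day 5 pool 1, and 1 of each without day 5 pool 2 or 3.

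Blood and immune genes changed in few members. Of 17 red blood cell genes 3 fell and 0 rose, with a median of -0.11, and 1 fell without day 3 pool 2. urod, of heme synthesis, fell to 691, 758 and 770.1 on day 5, against 1296 and 1274 on day 3 (-0.75 ± 0.12, adjusted p = 0.00243), in every fit without 1 array. Of 20 myeloid genes 4 rose and 1 fell, with a median of 0.28. grna.1, a granulin, had 1080, 1233 and 1040, against 329 and 359 (1.53 ± 0.17, adjusted p = 0.000365), and cebpa, a transcription factor of myeloid cells and of liver, rose by 0.80 (adjusted p = 0.00246). Another of the 4 was cpa5, which is also a pancreas member. mmp13a, a collagenase, fell by 1.04, and without day 3 pool 1 by 0.62 (adjusted p = 0.243), and without day 5 pool 2 its adjusted p was 0.0732. The calls of grna.1 and cebpa held in every fit without 1 array. Their days did not overlap, as in 56.9% of all genes. Of 4 thymus and lymphoid genes ccl25b, the thymus chemokine, rose (0.68 ± 0.15, adjusted p = 0.00939), with 0.0592 and 0.0937 without day 3 pools 1 and 2. None of 9 genes of the immune proteasome and antigen presentation passed.

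Pigment, purine and ion transport genes gave smaller sets. Of 16 pigment cell genes 4 rose and 1 fell, with a median of 0.40. gchfr, which regulates the synthesis of pteridines, had 2097, 1590 and 1441 on day 5, against 786 and 615 on day 3 (1.2 ± 0.18, adjusted p = 0.00135). dct, a melanin enzyme, had 9193, 8378 and 8155, against 5495 and 4655 (0.75 ± 0.12, adjusted p = 0.00187). Both calls held in every fit without 1 array. The days were apart in both, as in 56.9% of all genes. Of 23 purine synthesis genes 5 rose and 3 fell. shmt2, which supplies carbon units to folate, rose by 0.73 (adjusted p = 0.00269), and impdh1b, an IMP dehydrogenase, fell to 1108, 1684 and 1877, against 3358 and 3977 (-1.23 ± 0.20, adjusted p = 0.00208), both in every fit without 1 array. Of 27 ionocyte and kidney genes 4 rose and 1 fell. atp1a1a.4, a sodium pump subunit, rose by 0.63 (adjusted p = 0.00443), with 0.0635 without day 3 pool 2. Of 37 lysosome genes 4 rose (10.8%) and 2 fell (5.41%), near or under the shares of all genes given earlier. ctsl.1, a cathepsin also made by the hatching gland, had 1930, 1439 and 1979, against 465 and 738 (1.49 ± 0.20, adjusted p = 0.000891), and atp6ap1b, of the proton pump, fell to 588, 565 and 599.9, against 1310 and 1285 (-1.07 ± 0.15, adjusted p = 0.00123), both in every fit without 1 array. Of 13 hatching gland genes 4 rose and 0 fell, and among them agr2, which mucus cells also make, rose by 0.80 (adjusted p = 0.00286). In the p53 list 4 of 23 rose and 0 fell, but 0 rose without either day 3 pool. The germline and maternal list had 1 of 6 members higher and 2 lower, with 0 and 0 without day 3 pool 2, 0 and 1 without day 3 pool 1 or day 5 pool 3, and 1 and 1 without day 5 pool 1. Without day 3 pool 2 the rises were 1 of the ionocyte list, 1 of the lysosome list, 2 of the hatching gland list and 1 of the purine list, and the pigment fall was lost. The ionocyte list had 1 rise and the purine list 3 without day 3 pool 1, and 1 purine gene fell without either day 3 pool.

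The last comparison asked whether the step from day 3 to day 5 was as large in siblings as in mutants, and the changes in siblings and mutants share no array. No probe set passed the test of the difference in limma (0.0% of 11626), although 771 had an unadjusted p under 0.05. The smallest adjusted p was 0.074. Of the 2150 probe sets called in siblings 97.2% moved the same way in mutants, against 75.3% of all probe sets tested. cyp1a fell in mutants by about as much as in siblings, with 1403, 1111 and 1679 on day 5, against 15079 and 16747 on day 3 (a log2 difference of -3.47). The pancreas and the photoreceptors had the widest gaps. The median of the exocrine pancreas list was 2.27 in siblings and 0.77 in mutants. For ela2l the change was 3.14 ± 0.38 in siblings and 0.02 ± 0.38 in mutants, a difference of 3.12 ± 0.54 (adjusted p = 0.118). For amy2a the change was 2.26 in siblings and 0.45 in mutants (adjusted p of the difference = 0.118). The photoreceptor list's median was 0.42 in siblings and -0.43 in mutants, and crx changed by -0.72 in siblings and -2.48 in mutants (difference 1.76 ± 0.25, adjusted p = 0.074). The mutant medians of both lists draw on unequal pools. cela1.6 had 745, 589 and 2290 in mutant pools 1 to 3 of day 5, against 638 and 362 on day 3. gnat2 had 1259.5, 2214 and 5499, against 2524 and 1991. Mutant pool 3 was not the highest in amy2a (358, 235 and 356) or crx (525.5, 822 and 536). It is also the mutant pool whose source name gives day 4. Its sart3 signal was 809, against 105 and 132 in mutant pools 1 and 2 of day 5. On the first principal component it had 8.76, against -7.20 and -10.3 for those pools and 27.7 to 33.2 for the day 5 sibling pools. What sets mutant pool 3 apart, and how far it sets the medians, was not tested. The immune proteasome and antigen presentation list's median was 0.06 in siblings and 0.75 in mutants. The absence of calls depends on settings: 51 probe sets passed without mutant pool 3 of day 5, 45 of them with a more positive change in siblings, and 1 each without 3 other mutant pools. With all arrays kept, 7 passed with the replicate number as a block, 8 with the pseudocount at 50% of the median, 6 with array weights and 3 with the lowest 50% left out.

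**Figure D5:**
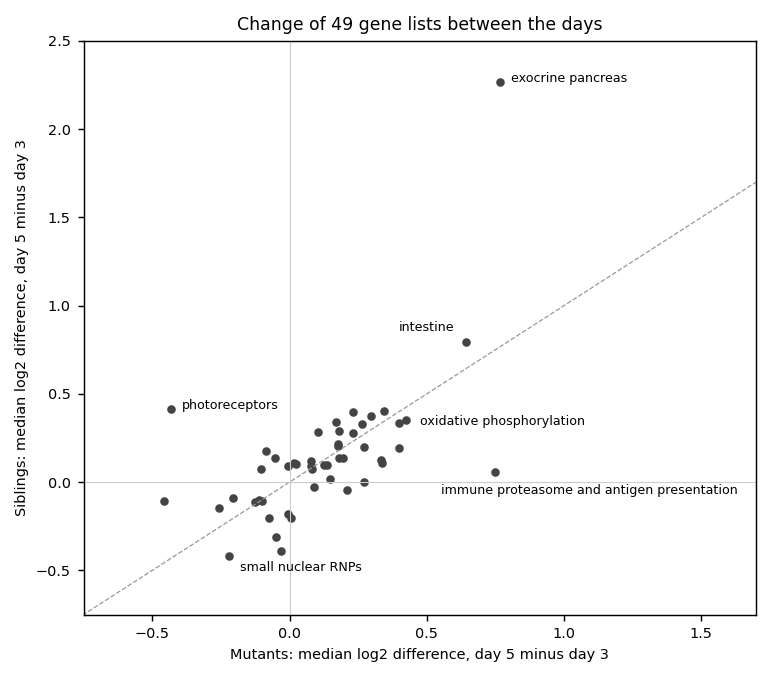
Median log2 difference between day 5 and day 3 in siblings (vertical axis) against that in mutants (horizontal axis), 1 point for each of the 49 lists. The dashed line marks equal change; the exocrine pancreas (2.27 in siblings, 0.77 in mutants) and photoreceptors (0.42 and -0.43) lie above it and the immune proteasome list (0.06 and 0.75) below it.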

How the data were processed

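The authors deposited intensity values on a linear scale, computed with MAS5, per the submitters' processing notes. Neither the scaling target nor any detection call is given in the sources used here. After scaling by the authors the trimmed means of the 10 arrays lay between 1493 and 1496, so each value is a level within its array. From 15617 probe sets, 115 controls were removed. The platform's annotation names 10795 of the remaining 15502 with a single gene, 135 with several and 4572 with none. Where a gene has several probe sets, the brightest stands for it. Levels of different probe sets are not set against each other, and the files give no genome build.

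A pseudocount of 65 (10% of the median of 647.8) was added before taking log2, which makes changes of dim probe sets look smaller. Probe sets in the lowest 25% by mean (limit 232) were dropped, and 11626 stayed. Group means were fitted to all 10 arrays in limma 3.58.1 under R 4.3.3 with eBayes and a trend, and Benjamini-Hochberg adjustment covered every probe set kept. Each ± is the model's SE. The labels call the replicates biological, and the number of arrays limits precision. The fit was tested on simulated data.

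The comparison, its members and the 49 lists were chosen with earlier results of these data known. The rule for named genes took the 15 largest rises and falls without overlap of the days (7 clone names were skipped), up to 4 called members per list and direction, each list's first member, and sart3; some genes it names are not described. Alternatives varied the pseudocount, filter, scaling, trend, array weights, replicate block, groups fitted, conflicting labels and arrays left out.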

Additional observations from a re-analysis of the deposited data

How the results depend on the processing

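The count of 2150 probe sets called between the days lay between 379 and 2387 when 1 array was left out, was 3661 with array weights, 275 with day 3 pool 2 counted as a mutant, as its strain label has it, and 192 without the 3 arrays with a conflicting label, an alternative added after the data were seen that leaves 1 day 3 pool. It was 1657 without the arrays labelled day 4, 3071 with the sibling arrays alone, and between 1856 and 2233 under the other pseudocounts, filters and scalings, without a trend and with the replicate number as a block. The split of the calls was 976 higher and 1174 lower, and 1004 higher and 974 lower with median centring. Of the 2150 probe sets 1 changed sign under any of the 23 alternatives. Leaving rcvrn3, mdm2 and snrpf aside, of the 128 called genes named above 81 kept the call in all 10 fits without 1 array. In those fits 35 lost it without a day 3 sibling pool and no other array, and none of the 128 changed direction under an alternative. The cause of the dependence on the day 3 pools was not tested beyond the fact that leaving out either leaves 1 pool, whose spread is then taken from the other groups. In size, the exocrine pancreas median was 2.34 without day 3 pool 2 and 2.36 without day 3 pool 1, against 2.27 with all arrays. The falls of p4ha1b and mmp13a did shrink, to -0.76 and -0.62 without day 3 pool 1. The difference in change between siblings and mutants, with 0 calls, had 8 with the pseudocount at 50% of the median, 3 with the lowest 50% left out, 6 with array weights, 7 with the replicate block, 27 without the arrays labelled day 4, 1 without all 3 arrays with a conflicting label, and 0 to 51 when 1 array was left out; the cause was not tested. Whether the replicate numbers pair the sibling pools of the 2 days could not be told. Deviations from the group means of same-numbered pools correlated at 0.14 and 0.06. With 2 day 3 pools these deviations are mirror images: day 5 pool 1 correlated at 0.14 with day 3 pool 1 and at -0.14 with day 3 pool 2. The block gave 2130 calls between the days, 1855 of them shared with the fit without it. On day 5 alone, same-numbered sibling and mutant pools correlated at 0.23 to 0.27. Without detection calls, low signals are bounded by the filter and the pseudocount alone, and a group mean under the filter limit leaves a fold uncertain.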

Other observations

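Beside cyp1a, the largest falls among called probe sets were those of 2 probe sets of the cluster numbered 1889, which have no gene symbol in the annotation. One had signals of 65, 55.1 and 70.9 on day 5, against 1718.5 and 1711 on day 3 (-3.79 ± 0.71 on the log2 scale, adjusted p = 0.00431). The other had 8.6, 8.1 and 51.8 on day 5, against 885 and 866 on day 3 (-3.46 ± 0.73, adjusted p = 0.00771). The day 5 signals of both were under the filter limit of 232, and the transcript was not identified here. In mutants they differed by -1.94 and -1.79. All probe sets of this section were singled out after their values were seen.

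A probe set annotated to mpx, the myeloperoxidase of neutrophils, had 95.4, 93.9 and 117 on day 5, against 948 and 702.5 on day 3 (-2.40 ± 0.30, adjusted p = 0.00056). The brighter mpx probe set had 657, 554 and 734 on day 5, against 510.1 and 505 on day 3 (0.31 ± 0.22, adjusted p = 0.349). The identifiers of both hold the cluster number of the cyp1a probe set, 9478, and which transcript each one reads was not tested. The dimmer probe set of cry-dash, a cryptochrome that repairs ultraviolet damage, had 319, 240.5 and 177 on day 5, against 1172 and 1227 on day 3 (-2.05 ± 0.21, adjusted p = 0.000196), while the brighter one fell by 0.87 (adjusted p = 0.00653).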
